A study of Mus musculus with 4 samples.

Results

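The nuclear genes of the mitochondrial respiratory chain and of ATP synthase were followed in 4 subsets of dendritic cells (DCs), the cells that present antigen to T cells, sorted from mouse spleen. Members were chosen by gene name alone, from the platform's annotation: names that start with Nduf (complex I), Sdha to Sdhd (complex II), names that start with Uqcr (complex III), Cox4 to Cox8 (complex IV) and names that start with Atp5 (ATP synthase, also called complex V). 1 gene that fits these names was left out of the set by the rule. This gave 89 genes of the 18193 named on the array, measured by 177 of its 45101 probe sets, which are groups of short oligonucleotides designed to match a transcript, or in some cases several. Each gene was read from its brightest probe set, by mean log2 signal over the arrays. Of the 89 genes, 83 lay above a floor of 55.3 on at least 1 array, as did 12673 of all 18193 named genes. The floor is the 90th percentile of the signal of 130 probe sets for smell and taste receptors and for hair keratin-associated proteins. These were taken as genes that spleen does not express, which was not checked for each of them.

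The 4 groups, named by their surface markers, were CD8+CX3CR1+, CD8+CX3CR1-, CD4+ and DN DCs. DN is the field's usual short form for cells that carry neither CD4 nor CD8. In all 4 groups the mice were Cx3cr1gfp/+ on a C57BL/6 background, in which green fluorescent protein replaces 1 copy of the chemokine receptor gene Cx3cr1, and the cells came from digested spleen, were enriched for CD11c, had high CD11c when sorted and carried no BMP4 treatment. The sources used here do not give age, the sort gates, the number of mice or any pooling. Each subset was measured on 1 Affymetrix Mouse Genome array, so no value has an SD or a test, "higher" and "lower" describe 2 arrays, and the number of arrays limits the precision. Signals are in the linear units of MAS5, scaled to the same mean on each array, so that less total RNA per cell cannot be seen, and fewer cells that express a gene cannot be told apart from less RNA of it per cell.

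The respiratory chain passes electrons from NADH (complex I) and succinate (complex II) through coenzyme Q, complex III and cytochrome c to complex IV, which reduces oxygen. Complexes I, III and IV pump protons across the inner mitochondrial membrane, and ATP synthase uses their return to make ATP. Most subunits are encoded in the nucleus and imported, while the central membrane subunits come from mitochondrial DNA, whose transcripts are outside this set. In dendritic cells, oxidative phosphorylation is known to feed resting and tolerogenic cells, and activated cells are known to turn to glycolysis.

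The labels themselves conflict: the field for the DC type repeats CD8+CX3CR1+ for the CD8+CX3CR1- sample and CD4+ for the DN sample, so groups were taken from the titles. The sort genes went with the titles. Cd8a had signals of 2530.2 and 4742 in CD8+CX3CR1+ and CD8+CX3CR1- DCs, against 18.7 in CD4+ and 129.5 in DN DCs; Cx3cr1 had 894 in CD8+CX3CR1+ DCs, against 97.3 in CD8+CX3CR1- DCs; and Cd4 had 564 in CD4+ DCs, against 93.9 in DN DCs. All 4 DC genes checked (Flt3, Zbtb46, Cd74, H2-Ab1) were above the floor on every array. Between 41.2% and 47.9% of probe sets lay above the floor, the most on the CD4+ array. The 3'/5' ratio of the Gapdh control probe sets, which grows as RNA is shortened, was 11.8 on the CD4+ array and 7.56 to 8.98 on the other 3, and that of Actb was 2.86 and 1.79 to 2.32. Whether RNA quality had a part in any difference against CD4+ DCs was not tested.

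Most respiratory chain and ATP synthase genes had their highest signal in CD8+CX3CR1- DCs. Of the 83 members above the floor, 53 (63.9%) were highest there, against 26.8% of all 12673 genes. Another 18 (21.7%) were highest in CD4+ DCs, where 32.5% of all genes were, 7 (8.43%) in CD8+CX3CR1+ DCs (22.6% of all genes) and 5 (6.02%) in DN DCs (18% of all genes). The lowest signal was on the CD8+CX3CR1+ array for 31 members (37.3%), on the CD4+ array for 27 (32.5%), on the DN array for 18 (21.7%) and on the CD8+CX3CR1- array for 7 (8.43%). For all genes these shares were 15.4%, 18.8%, 14.3% and 22%, genes tied at the floor having no lowest array. Bright genes as a whole leaned the same way to a smaller degree. Of the 1450 genes with a mean signal of at least 1000, 38.6% were highest in CD8+CX3CR1- DCs, as were 39 of the 56 members (69.6%) in that range. These 1450 genes were lowest on the CD8+CX3CR1+ array in 28.8%, CD4+ in 29.7%, DN in 16.6% and CD8+CX3CR1- in 25%. The share of members lowest in CD4+ DCs was thus close to that of bright genes.

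**Figure D1:**
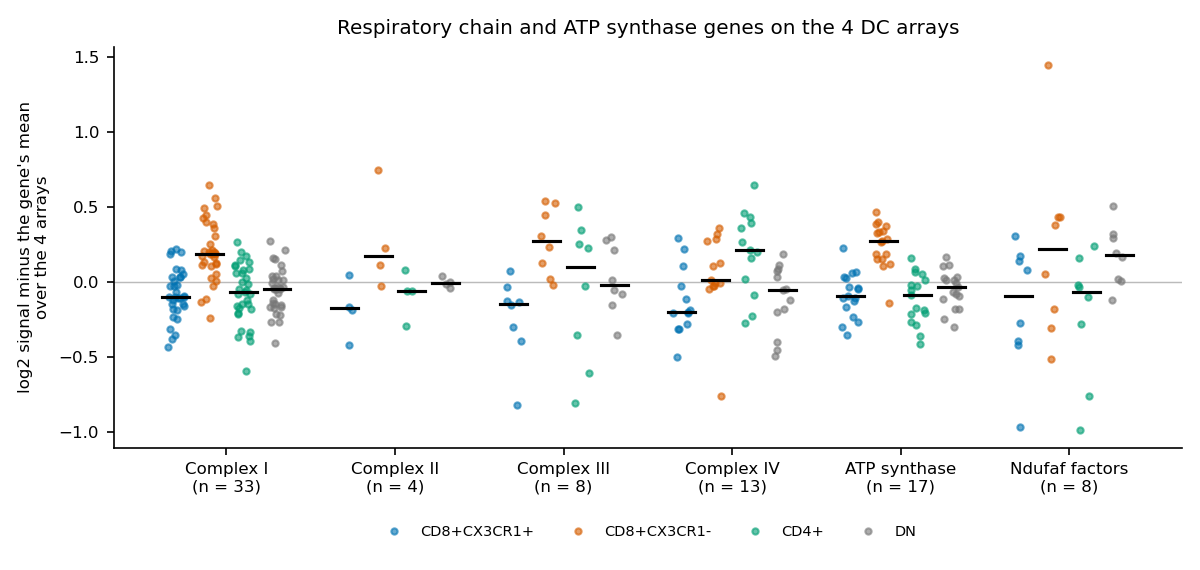
Each point is 1 of the 83 members above the floor; the vertical axis is its log2 signal minus its own mean over the 4 arrays, the colour is the DC subset and the black bar is the median of the group of genes. In complex I and ATP synthase the CD8+CX3CR1- points lie mostly above 0, and in complex IV the CD4+ points reach as high.

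The differences were small but leaned one way. In CD8+CX3CR1+ DCs, 14 members had a higher and 69 (83.1%) a lower signal than in CD8+CX3CR1- DCs, where 43.3% of all genes were higher and 41.6% lower, and the members' median log2 difference was -0.30 (0.81-fold) beside 0.00 for all genes. In CD8+CX3CR1- DCs, 59 members (71.1%) were higher and 24 lower than in CD4+ DCs, against 41.5% and 50.8% of all genes, with a median of 0.25 beside -0.01. With arrays scaled to an equal median instead, these became 0.03 beside -0.21. Against DN DCs, 70 members (84.3%) were higher in CD8+CX3CR1- DCs and 13 lower, against 43.1% and 42.5% of all genes, with a median of 0.24 beside 0.00. Genes with both values under the floor count in neither direction, which lowers the shares of all genes, while all 83 members had a direction. For genes with a mean signal of at least 1000 the median was -0.12, 0.09 and 0.06 in the same 3 comparisons, and for the 56 members of that brightness -0.30, 0.25 and 0.24. Of these bright genes 59.9%, 55.9% and 56% lay on the side of the members' median, and of the 56 members 92.9%, 73.2% and 91.1%. These 3 comparisons share the CD8+CX3CR1- array, so they are not separate observations.

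Among the other 3 subsets the members' medians lay close together at the deposited scale. CD8+CX3CR1+ DCs had 35 members higher and 48 lower than CD4+ DCs, against 42.3% and 49.2% of all genes, with a median log2 difference of -0.10. The same 35 and 48 were counted for CD8+CX3CR1+ against DN DCs, where 43% and 41.5% of all genes were higher and lower, with a median of -0.05. CD4+ DCs had 39 members higher and 44 lower than DN DCs, against 50.8% and 41.6% of all genes, with a median of -0.02. With arrays scaled to an equal median, CD8+CX3CR1+ minus CD4+ DCs became -0.40 beside -0.25 for all genes, and CD4+ minus DN DCs became 0.18 beside 0.20.

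Few members differed by much. Over the 4 arrays the median member spanned 1.47-fold between its highest and lowest signal, and 74 of 83 (89.2%) stayed under 2-fold, against 71.6% of all genes above the floor and 76.8% of those with a mean signal of at least 1000. At 2-fold, CD8+CX3CR1+ DCs had 0 members higher and 2 lower than CD8+CX3CR1- DCs, where 7.71% and 5.81% of all genes passed. CD8+CX3CR1- DCs had 5 members at least 2-fold higher and 1 lower than CD4+ DCs (6.79% and 9.11% of all genes), and 1 higher and 0 lower than DN DCs (4.79% and 6.18%). At 1.5-fold, a threshold added after the data were seen, CD8+CX3CR1+ DCs had 2 members higher and 18 (21.7%) lower than CD8+CX3CR1- DCs, against 16.2% and 13.8% of all genes. CD8+CX3CR1- DCs had 19 (22.9%) higher and 3 lower than CD4+ DCs at 1.5-fold (15.8% and 19.9% of all genes), and 9 (10.8%) higher and 2 lower than DN DCs (13% and 14.3%). The members' shares at 2-fold were below those of all genes in both directions in all 3 comparisons, so the lean described above lay in differences under 2-fold.

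**Figure D2:**
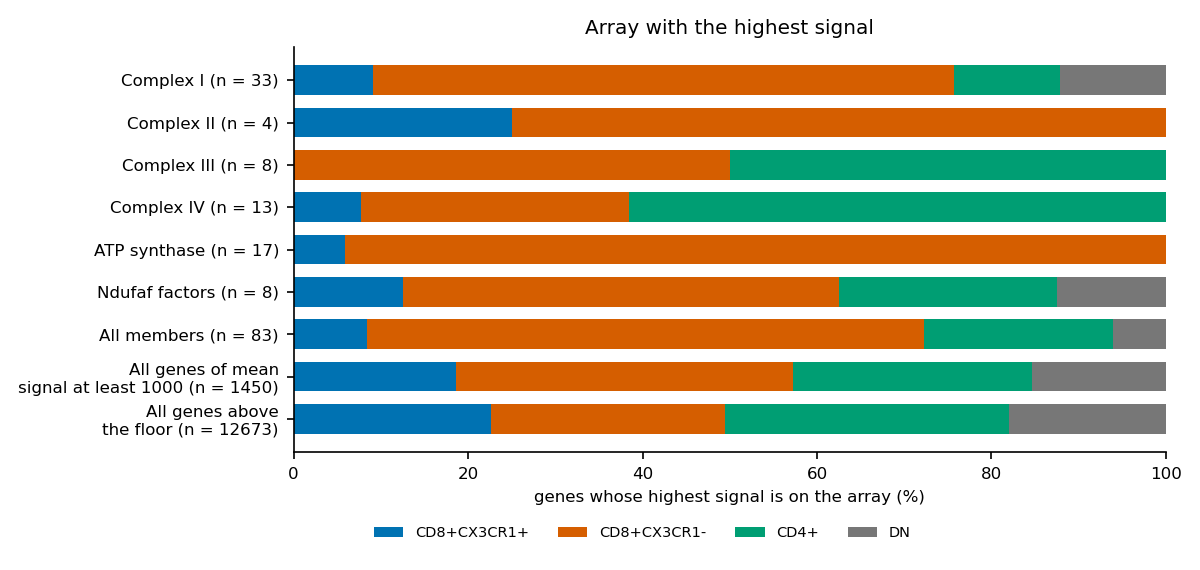
Horizontal bars give, for each group of genes, the percent whose highest signal was on each of the 4 arrays. CD8+CX3CR1- DCs held the highest signal for 63.9% of all members and 26.8% of all genes above the floor, and CD4+ DCs for 8 of 13 members of complex IV.

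Promoter sequence was set beside these values because the members lean together. RefSeq windows of build GRCm38.p6, from 250 bases before to 50 after the gene's start, were matched for 74 of the 89 members (79 windows, some genes having more than 1). Searched on both strands were the letters GCGCATGC of the NRF1 motif, AAGATGGC of the YY1 motif, CCGGAAGT of the GABP or ETS motif and CAAGGTCA of the motif of estrogen-related receptors, all of them factors known to act on respiratory chain genes. The first of these reads nearly the same on both strands, so that its matches on the 2 strands can overlap. NRF1 letters stood in the windows of 11 of 74 members (14.9%), against 3.05% of all 27025 genes with a window. YY1 letters stood in 10 (13.5%, against 3.19%), GABP letters in 5 (6.76%, against 4.31%) and estrogen-related receptor letters in 4 (5.41%, against 1.76%). The members' windows were also richer in G and C, at a median of 59% against 52.7% of bases, and the part of base content in these shares was not tested. A match is a description of these letters and not a bound site.

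Windows of 4 members with a match and an excess in CD8+CX3CR1- DCs, chosen after their values were seen, are shown, 5' to 3' on the gene's own strand, with the matching letters in capitals. They are Sdhd (chr9:50603800-50604099, minus strand) with the estrogen-related receptor letters in reverse, Ndufa9 (chr6:126849095-126849394, minus strand) and Ndufs4 (chr13:114388045-114388344, minus strand) with the YY1 letters, and Uqcr11 (chr10:80406772-80407071, minus strand) with the GABP letters and then the NRF1 letters in reverse.
Sdhd: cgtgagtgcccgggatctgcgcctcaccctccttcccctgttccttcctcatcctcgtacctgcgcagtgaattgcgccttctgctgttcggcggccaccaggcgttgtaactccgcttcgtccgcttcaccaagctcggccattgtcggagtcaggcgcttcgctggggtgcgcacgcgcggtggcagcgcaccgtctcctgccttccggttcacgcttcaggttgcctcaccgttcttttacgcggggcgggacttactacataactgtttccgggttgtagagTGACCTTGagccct
Ndufa9: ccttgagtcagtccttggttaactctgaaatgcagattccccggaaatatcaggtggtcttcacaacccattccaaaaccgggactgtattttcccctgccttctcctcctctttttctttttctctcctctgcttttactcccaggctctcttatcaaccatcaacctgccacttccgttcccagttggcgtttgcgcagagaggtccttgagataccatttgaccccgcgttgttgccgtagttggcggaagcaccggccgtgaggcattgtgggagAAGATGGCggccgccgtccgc
Ndufs4: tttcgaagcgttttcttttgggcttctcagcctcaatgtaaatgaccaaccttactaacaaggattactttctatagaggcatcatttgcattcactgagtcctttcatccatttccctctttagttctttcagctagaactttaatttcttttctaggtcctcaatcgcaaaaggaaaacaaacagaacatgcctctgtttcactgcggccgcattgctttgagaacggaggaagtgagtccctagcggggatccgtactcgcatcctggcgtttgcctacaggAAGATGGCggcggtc
Uqcr11: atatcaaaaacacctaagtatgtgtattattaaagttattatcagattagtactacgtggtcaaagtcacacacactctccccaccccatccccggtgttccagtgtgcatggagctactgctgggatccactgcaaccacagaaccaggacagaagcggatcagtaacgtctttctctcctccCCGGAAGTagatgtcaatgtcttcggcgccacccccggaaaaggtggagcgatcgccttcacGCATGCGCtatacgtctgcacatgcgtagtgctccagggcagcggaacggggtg
In both YY1 windows the letters lie near the end of the window, downstream of the annotated start. The median log2 difference of CD8+CX3CR1- minus CD4+ DCs was 0.53 for the 10 detected members with YY1 letters and 0.25 for the 60 without, 0.50 for the 4 with estrogen-related receptor letters and 0.25 for the 66 without, 0.26 for the 5 with GABP letters and 0.26 for the 65 without, and 0.17 for the 11 with NRF1 letters and 0.26 for the 59 without. This split was made for that comparison only, and whether any of these factors had a part in the differences was not tested.

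Complex I is the largest of the assemblies, with 33 of its genes above the floor here, and its core subunits varied less between arrays than its accessory ones. The 6 core subunits measured, most of which bind the flavin or the iron-sulfur clusters that carry electrons, all spanned less than 1.5-fold over the 4 arrays, and their median log2 difference was -0.13 for CD8+CX3CR1+ minus CD8+CX3CR1- DCs, 0.13 for CD8+CX3CR1- minus CD4+ DCs and -0.01 for CD8+CX3CR1- minus DN DCs. For the 27 accessory subunits, which surround and stabilise the core, these medians were -0.29, 0.33 and 0.29. Ndufv1, the subunit that binds NADH and the flavin, had signals of 2418 in CD8+CX3CR1+ DCs, 2037 in CD8+CX3CR1- DCs, 1855 in CD4+ DCs and 2019 in DN DCs, highest in CD8+CX3CR1+ DCs. Ndufs7, which carries the last iron-sulfur cluster before coenzyme Q, had 3454 in CD8+CX3CR1+ DCs, 2773 in CD8+CX3CR1- DCs, 2935 in CD4+ DCs and 3028 in DN DCs, in which CD8+CX3CR1- DCs were lowest. Ndufs1, the largest core subunit, had 969 in CD8+CX3CR1+ DCs, 1185 in CD8+CX3CR1- DCs, 997 in CD4+ DCs and 1206 in DN DCs, so that DN and CD8+CX3CR1- DCs were nearly level. Ndufs3, a subunit of the module next to the coenzyme Q site, was flatter still, with 1007 in CD8+CX3CR1+ DCs, 987 in CD8+CX3CR1- DCs, 928 in CD4+ DCs and 1009 in DN DCs. The remaining core subunits, Ndufv2 and Ndufs8, both iron-sulfur proteins, were highest in CD8+CX3CR1- DCs, with 2955 and 4082, though on another probe set of Ndufv2 CD8+CX3CR1- minus CD4+ DCs gave -0.44.

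Of the 27 accessory subunits, 24 were lower in CD8+CX3CR1+ than in CD8+CX3CR1- DCs, 21 were higher in CD8+CX3CR1- than in CD4+ DCs and 24 higher than in DN DCs. Ndufs4, which is needed for the stable attachment of the NADH-binding module and is mutated in a form of Leigh syndrome in humans, had signals of 991 in CD8+CX3CR1+ DCs, 1836 in CD8+CX3CR1- DCs, 1172 in CD4+ DCs and 887 in DN DCs. It was 2.07-fold higher in CD8+CX3CR1- than in DN DCs (log2 1.05), the only member past 2-fold in that comparison, and lower in CD8+CX3CR1+ than in CD8+CX3CR1- DCs (log2 -0.89). Its other 3 probe sets, all much dimmer, gave log2 values of -0.35, 0.11 and 0.70 for CD8+CX3CR1- minus DN DCs and 0.40, -0.12 and -0.12 for CD8+CX3CR1+ minus CD8+CX3CR1- DCs. Ndufa9, a subunit near the coenzyme Q site, had 1077 in CD8+CX3CR1+ DCs, 1391 in CD8+CX3CR1- DCs, 698 in CD4+ DCs and 1176 in DN DCs, and its signal was 1.99-fold higher in CD8+CX3CR1- than in CD4+ DCs. CD4+ DCs were clearly lowest for this gene, and the other 3 subsets lay within 1.5-fold of each other.

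Ndufa12, a subunit of the arm that reaches into the matrix, had 1924 in CD8+CX3CR1+ DCs, 3404 in CD8+CX3CR1- DCs, 2156 in CD4+ DCs and 2319 in DN DCs. Ndufab1, the mitochondrial acyl carrier protein, which also serves lipoic acid synthesis, had 521 in CD8+CX3CR1+ DCs, 877 in CD8+CX3CR1- DCs, 453 in CD4+ DCs and 602 in DN DCs. Ndufs5, a small subunit in the intermembrane space, had 189.5 in CD8+CX3CR1+ DCs, 337 in CD8+CX3CR1- DCs, 266 in CD4+ DCs and 219.7 in DN DCs. In all 3 genes CD8+CX3CR1- DCs were highest and CD8+CX3CR1+ DCs lowest or close to it on the probe sets used. On a second, dimmer probe set of Ndufab1, CD8+CX3CR1+ DCs were highest (144, against 112 in CD8+CX3CR1- DCs). Ndufb2, a membrane arm subunit among those with the largest excess over DN DCs, had 874 in CD8+CX3CR1+ DCs, 1317 in CD8+CX3CR1- DCs, 828 in CD4+ DCs and 801 in DN DCs. Ndufa5, a matrix arm subunit and the member nearest to the complex I median against CD4+ DCs, had 1876 in CD8+CX3CR1+ DCs, 2003 in CD8+CX3CR1- DCs, 1681 in CD4+ DCs and 1578 in DN DCs. Both were highest in CD8+CX3CR1- DCs, the second by a small margin, and a second probe set of Ndufa5 had the opposite sign against CD4+ DCs (log2 -0.21). Of the 27 accessory subunits, 20 were highest in CD8+CX3CR1- DCs, 4 in CD4+ DCs (Ndufa2, Ndufa10, Ndufc2 and Ndufv3), 2 in DN DCs (Ndufa8 and Ndufb1) and 1 in CD8+CX3CR1+ DCs (Ndufb6). For Ndufc2 that depends on the probe set. Its others above the floor gave log2 values of 0.76 and 0.66 for CD8+CX3CR1- minus CD4+ DCs, against -0.03 on the one used. Ndufb1, a small membrane arm subunit, was dim, with 113 in CD8+CX3CR1+ DCs, 104 in CD8+CX3CR1- DCs, 131 in CD4+ DCs and 149 in DN DCs, and was lowest in CD8+CX3CR1- DCs (log2 -0.52 against DN DCs). Ndufv3, an accessory subunit of the NADH-binding arm, was level between CD8+CX3CR1+ (1563) and CD8+CX3CR1- DCs (1557) and highest in CD4+ DCs (1933).

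The 8 Ndufaf genes, whose products help to assemble complex I and are not part of the finished enzyme, were more scattered than the subunits, and 4 of them were highest in CD8+CX3CR1- DCs. Ndufaf6, an early assembly factor, had signals of 56.0 in CD8+CX3CR1+ DCs, 297 in CD8+CX3CR1- DCs, 51.1 in CD4+ DCs and 155 in DN DCs. The CD4+ value lay under the floor and the CD8+CX3CR1+ value just above it, so the CD8+CX3CR1- signal was at least 5.37-fold higher than in CD4+ DCs and 5.31-fold higher than in CD8+CX3CR1+ DCs. Ndufaf1, which helps to build the membrane arm, had 210.2 in CD8+CX3CR1+ DCs, 230.0 in CD8+CX3CR1- DCs, 101 in CD4+ DCs and 173 in DN DCs, and was 2.29-fold higher in CD8+CX3CR1- than in CD4+ DCs. Here it was the CD4+ array that stood apart, low against the other 3. Ndufaf8 had 1037 in CD8+CX3CR1+ DCs, 1875 in CD8+CX3CR1- DCs, 1369 in CD4+ DCs and 1396 in DN DCs, one of the largest deficits of CD8+CX3CR1+ against CD8+CX3CR1- DCs (log2 -0.85). Its product works with the factor Ndufaf5, which had 153 in CD8+CX3CR1+ DCs, 262 in CD8+CX3CR1- DCs, 166 in CD4+ DCs and 247 in DN DCs.

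Other assembly factors ran the opposite way. Ndufaf7, a methyltransferase that modifies a core subunit, had 292 in CD8+CX3CR1+ DCs, 194 in CD8+CX3CR1- DCs, 326 in CD4+ DCs and 316 in DN DCs. Ndufaf3, an early factor, had 245 in CD8+CX3CR1+ DCs, 175 in CD8+CX3CR1- DCs, 212 in CD4+ DCs and 244 in DN DCs. Its partner Ndufaf4 had 622 in CD8+CX3CR1+ DCs, 498 in CD8+CX3CR1- DCs, 631 in CD4+ DCs and 519 in DN DCs. All 3 were lowest in CD8+CX3CR1- DCs, and Ndufaf7 was 1.51-fold higher in CD8+CX3CR1+ than in CD8+CX3CR1- DCs. Ndufaf2, a late factor related to Ndufa12 and nearest to the group's median against CD4+ DCs, had 241 in CD8+CX3CR1+ DCs, 302 in CD8+CX3CR1- DCs, 271 in CD4+ DCs and 363 in DN DCs, with DN DCs highest.

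Complex II is also an enzyme of the tricarboxylic acid cycle, and 1 of its 4 subunits stood apart from the rest. Sdhd, a membrane anchor that helps to form the coenzyme Q site, had signals of 597 in CD8+CX3CR1+ DCs, 1340.2 in CD8+CX3CR1- DCs, 653 in CD4+ DCs and 778 in DN DCs. CD8+CX3CR1- DCs stood above all 3 other arrays, with a log2 difference of -1.17 for CD8+CX3CR1+ minus CD8+CX3CR1- DCs, 1.04 for CD8+CX3CR1- minus CD4+ DCs and 0.79 for CD8+CX3CR1- minus DN DCs. A second, much dimmer probe set of Sdhd gave 0.47, 0.48 and -0.18 for these comparisons, so that only the CD4+ one had the same sign on both. Sdhb, the iron-sulfur subunit, had 2342 in CD8+CX3CR1+ DCs, 3067 in CD8+CX3CR1- DCs, 2518 in CD4+ DCs and 2629 in DN DCs. Sdha, the flavin-bearing subunit that oxidises succinate, had 2753 in CD8+CX3CR1+ DCs, 3388 in CD8+CX3CR1- DCs, 3307 in CD4+ DCs and 3101 in DN DCs. On a second bright probe set of Sdha, CD8+CX3CR1+ DCs were highest. There CD8+CX3CR1+ minus CD8+CX3CR1- DCs gave 0.16, against -0.30 on the one used, while CD8+CX3CR1- minus CD4+ DCs (0.27) kept its sign. Sdhc, the other anchor, had 175 in CD8+CX3CR1+ DCs, 166 in CD8+CX3CR1- DCs, 162 in CD4+ DCs and 174 in DN DCs. Apart from Sdhd, the complex II genes stayed within 1.5-fold over the 4 arrays on the probe sets used, and Sdhc was all but flat.

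All 8 complex III genes were lower in CD8+CX3CR1+ than in CD8+CX3CR1- DCs, with a median log2 difference of -0.55, the lowest of the 5 complexes. Against CD4+ DCs, 4 were higher and 4 lower in CD8+CX3CR1- DCs, with a median of 0.11, which turned to -0.11 when arrays were scaled to an equal median and became 0.88 over the 6 genes left without the probe sets that can match several transcripts. Uqcrfs1, the Rieske iron-sulfur protein that passes electrons toward cytochrome c, had signals of 2285 in CD8+CX3CR1+ DCs, 3617 in CD8+CX3CR1- DCs, 1645 in CD4+ DCs and 2912 in DN DCs, a 2.20-fold excess of CD8+CX3CR1- over CD4+ DCs. Uqcrc2, a core protein of the matrix side, had 2659.8 in CD8+CX3CR1+ DCs, 3445 in CD8+CX3CR1- DCs, 1445 in CD4+ DCs and 3069.6 in DN DCs, a 2.38-fold excess. Its second probe set was higher in CD8+CX3CR1- than in CD4+ DCs as well (log2 0.74). Uqcr11, one of the smallest subunits, had 1359 in CD8+CX3CR1+ DCs, 2023 in CD8+CX3CR1- DCs, 1088 in CD4+ DCs and 1248 in DN DCs. For these 3 genes CD4+ DCs were lowest and CD8+CX3CR1- DCs highest.

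In 4 other complex III genes CD4+ DCs were highest on the brightest probe set, and for 2 of them, Uqcrb and Uqcr10, that depends on the probe set. Uqcrq, a small subunit next to cytochrome b, had 654 in CD8+CX3CR1+ DCs, 1171 in CD8+CX3CR1- DCs, 1637 in CD4+ DCs and 1424 in DN DCs, with CD8+CX3CR1+ DCs well under the other 3. Uqcrb, another small subunit, had 13104 in CD8+CX3CR1+ DCs, 18822 in CD8+CX3CR1- DCs, 20490.2 in CD4+ DCs and 17359 in DN DCs on its brightest probe set. Its second probe set had the opposite sign for CD8+CX3CR1- minus CD4+ DCs (0.86, against -0.12 on the brightest). Uqcr10, a small subunit nearest to the complex III median, had 398 in CD8+CX3CR1+ DCs, 606 in CD8+CX3CR1- DCs, 622 in CD4+ DCs and 383 in DN DCs. Its other 2 probe sets gave at least 0.97, the CD4+ value being under the floor, and 0.40 for CD8+CX3CR1- minus CD4+ DCs, against -0.04 on the one used. Uqcrc1, the other core protein, had 966 in CD8+CX3CR1+ DCs, 1057 in CD8+CX3CR1- DCs, 1256 in CD4+ DCs and 1035 in DN DCs. Among these 4 genes, CD8+CX3CR1+ DCs were lowest in 3, and DN DCs were lowest for Uqcr10. Uqcrh, the acidic hinge protein that docks cytochrome c, had 1624 in CD8+CX3CR1+ DCs, 2081 in CD8+CX3CR1- DCs, 1741 in CD4+ DCs and 1672 in DN DCs, highest in CD8+CX3CR1- DCs. Its second probe set had the opposite sign for CD8+CX3CR1+ minus CD8+CX3CR1- DCs (log2 0.29) and for CD8+CX3CR1- minus CD4+ DCs (log2 -0.31).

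Complex IV was the one complex in which CD4+ DCs, not CD8+CX3CR1- DCs, most often held the highest signal. Of its 13 genes above the floor, 8 were highest in CD4+ DCs and 4 in CD8+CX3CR1- DCs, 9 were lower in CD8+CX3CR1- than in CD4+ DCs, and the median log2 difference was -0.20 for CD8+CX3CR1- minus CD4+ DCs and 0.34 for CD4+ minus DN DCs. Without the probe sets that can match several transcripts, 5 of 9 were highest in CD4+ DCs. Against CD8+CX3CR1+ and DN DCs the complex followed the rest, with a median of -0.24 for CD8+CX3CR1+ minus CD8+CX3CR1- DCs and 0.17 for CD8+CX3CR1- minus DN DCs. Cox5b, a subunit on the matrix side, had signals of 8548 in CD8+CX3CR1+ DCs, 11843 in CD8+CX3CR1- DCs, 18877 in CD4+ DCs and 11091 in DN DCs. CD4+ DCs were 1.59-fold above CD8+CX3CR1- DCs on that probe set, but the 5 probe sets of Cox5b above the floor ran from -1.13 to 0.76 for CD8+CX3CR1- minus CD4+ DCs, so the gene's direction rests on the probe set chosen. Cox6c, nearest to the complex IV median, had 2367 in CD8+CX3CR1+ DCs, 2717 in CD8+CX3CR1- DCs, 3122 in CD4+ DCs and 2606 in DN DCs. On its second probe set CD8+CX3CR1- and CD4+ DCs were nearly level (log2 0.04, against -0.20 on the one used).

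Cox6b1, which joins both monomers of the enzyme's dimer, had 10861 in CD8+CX3CR1+ DCs, 12455 in CD8+CX3CR1- DCs, 15069 in CD4+ DCs and 12032 in DN DCs. Cox4i1, the common form of a subunit that binds ATP, had 5779 in CD8+CX3CR1+ DCs, 6817 in CD8+CX3CR1- DCs, 6981 in CD4+ DCs and 5524 in DN DCs. Cox8a, the common form of a small membrane subunit, had 419 in CD8+CX3CR1+ DCs, 635 in CD8+CX3CR1- DCs, 655 in CD4+ DCs and 387 in DN DCs. In the last 2 genes CD4+ and CD8+CX3CR1- DCs were nearly level above the other arrays. Cox7a2l, which helps to join complex III and complex IV into supercomplexes and exists in a shortened form in C57BL/6 mice, had 6102 in CD8+CX3CR1+ DCs, 6896 in CD8+CX3CR1- DCs, 9492 in CD4+ DCs and 6133 in DN DCs. On its other 2 probe sets CD8+CX3CR1- minus CD4+ DCs gave 0.12 and -0.26, against -0.46 on the one used. In 4 genes CD8+CX3CR1- DCs were highest, as in the larger set. Ndufa4, once counted in complex I and now known as a complex IV subunit, had 507 in CD8+CX3CR1+ DCs, 808 in CD8+CX3CR1- DCs, 539 in CD4+ DCs and 717 in DN DCs. Cox7a2, the common form of a small subunit, had 3708 in CD8+CX3CR1+ DCs, 5596 in CD8+CX3CR1- DCs, 4322 in CD4+ DCs and 4980.3 in DN DCs. Cox5a, which binds a thyroid hormone metabolite, had 4189.8 in CD8+CX3CR1+ DCs, 5159.8 in CD8+CX3CR1- DCs, 3528 in CD4+ DCs and 4364 in DN DCs. Cox6a1, the common form of its subunit, was the flattest of the 4, with 9021 in CD8+CX3CR1+ DCs, 11158 in CD8+CX3CR1- DCs, 10502 in CD4+ DCs and 10930.1 in DN DCs. Cox7c, the last of the common subunits, had 228 in CD8+CX3CR1+ DCs, 211 in CD8+CX3CR1- DCs, 279 in CD4+ DCs and 151 in DN DCs, with CD4+ DCs highest and DN DCs lowest.

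**Figure D3:**
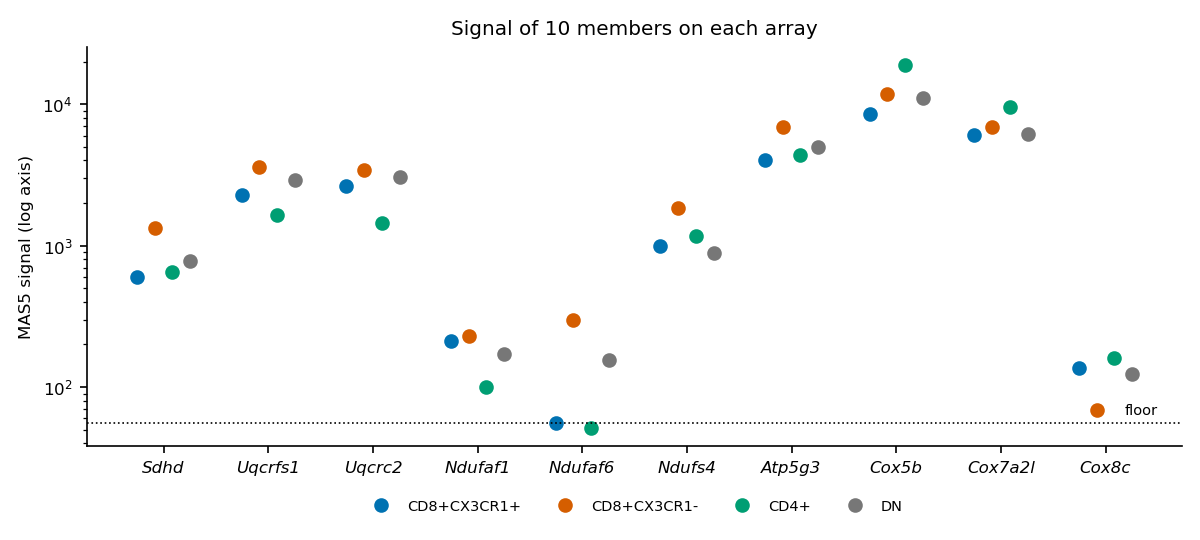
Points give the signal, on a log axis, of 10 members on each of the 4 arrays, and the dotted line is the floor of 55.3. Sdhd, Ndufaf6, Ndufs4 and Atp5g3 have their CD8+CX3CR1- point above the rest, Uqcrfs1, Uqcrc2 and Ndufaf1 have a low CD4+ point, and Cox5b and Cox7a2l have a high CD4+ point.

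Of the tissue forms of complex IV subunits, which replace the common ones in muscle, lung or testis, most were under the floor on all 4 arrays. Cox7a1 and Cox8b, known from heart and muscle, Cox4i2, known from lung, Cox7b2 and Ndufa4l2, a form induced by low oxygen, had no signal above 46.2 on any array. The 2 exceptions were both dim. Cox8c, a testis form, had 136 in CD8+CX3CR1+ DCs, 69.3 in CD8+CX3CR1- DCs, 161 in CD4+ DCs and 124 in DN DCs. Cox6b2, likewise known from testis, had 102 in CD8+CX3CR1+ DCs, 80.6 in CD8+CX3CR1- DCs, 95.7 in CD4+ DCs and 60.9 in DN DCs. Cox8c was the only member at least 2-fold lower in CD8+CX3CR1- than in CD4+ DCs (log2 -1.22). Ndufb4 was the sixth gene under the floor, and its probe set reached no more than 54.4.

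The genes of ATP synthase leaned together, and 16 of the 17 were highest in CD8+CX3CR1- DCs. The same number were lower in CD8+CX3CR1+ than in CD8+CX3CR1- DCs (median log2 difference -0.38) and higher in CD8+CX3CR1- than in CD4+ DCs (median 0.41), and all 17 were higher in CD8+CX3CR1- than in DN DCs (median 0.31). All 17 also spanned less than 2-fold over the 4 arrays. In the F1 head, Atp5b, the subunit whose sites make ATP, had signals of 2064 in CD8+CX3CR1+ DCs, 2756 in CD8+CX3CR1- DCs, 1849.5 in CD4+ DCs and 1969 in DN DCs. Its non-catalytic partner Atp5a1 had 3907 in CD8+CX3CR1+ DCs, 4559 in CD8+CX3CR1- DCs, 3770.4 in CD4+ DCs and 3813 in DN DCs. Both were highest in CD8+CX3CR1- DCs on these probe sets, and the other 3 subsets were close to each other. On a second bright probe set of Atp5a1, CD8+CX3CR1- DCs were lowest and all 3 comparisons had the opposite sign (log2 0.10 for CD8+CX3CR1+ minus CD8+CX3CR1- DCs, -0.17 for CD8+CX3CR1- minus CD4+ DCs and -0.18 for CD8+CX3CR1- minus DN DCs). Atp5c1, the rotor shaft, had 6897 in CD8+CX3CR1+ DCs, 9441 in CD8+CX3CR1- DCs, 8605 in CD4+ DCs and 8485 in DN DCs. Atp5e, at the foot of the shaft, had 2145 in CD8+CX3CR1+ DCs, 3069.8 in CD8+CX3CR1- DCs, 2489.5 in CD4+ DCs and 2469 in DN DCs. In these 2 genes CD8+CX3CR1- DCs were highest and CD8+CX3CR1+ DCs lowest. On a second probe set of Atp5c1 CD8+CX3CR1- minus CD4+ DCs gave -0.91, against 0.13 on the one used.

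The membrane rotor is a ring of identical c subunits, encoded by 3 genes whose mature proteins are the same. Atp5g3 had 4022 in CD8+CX3CR1+ DCs, 6851 in CD8+CX3CR1- DCs, 4359.5 in CD4+ DCs and 5003 in DN DCs, and CD8+CX3CR1- DCs stood 1.70-fold above CD8+CX3CR1+ DCs. Atp5g1 had 595 in CD8+CX3CR1+ DCs, 749.7 in CD8+CX3CR1- DCs, 505 in CD4+ DCs and 462 in DN DCs. Atp5g2 had 3087 in CD8+CX3CR1+ DCs, 3532 in CD8+CX3CR1- DCs, 3328 in CD4+ DCs and 2805 in DN DCs. All 3 had the same highest array, though the mean over all probe sets of Atp5g2, 1 of them under the floor on every array, had the opposite sign in all 3 comparisons with CD8+CX3CR1- DCs. In the stalk that holds the head still, Atp5pb had 2925 in CD8+CX3CR1+ DCs, 3997 in CD8+CX3CR1- DCs, 2488 in CD4+ DCs and 3588 in DN DCs. Atp5h had 5896 in CD8+CX3CR1+ DCs, 6408 in CD8+CX3CR1- DCs, 4723 in CD4+ DCs and 6220.1 in DN DCs. Atp5j had 2279.6 in CD8+CX3CR1+ DCs, 3074 in CD8+CX3CR1- DCs, 2026 in CD4+ DCs and 2481 in DN DCs. All 3 stalk genes were lowest in CD4+ DCs. Atp5mpl, a small membrane protein of the complex and the member nearest to its median against CD4+ DCs, had 636 in CD8+CX3CR1+ DCs, 1062 in CD8+CX3CR1- DCs, 797 in CD4+ DCs and 807 in DN DCs. Atp5d, Atp5j2, Atp5k, Atp5l and Atp5md were highest in CD8+CX3CR1- DCs as well. The 1 exception was Atp5o, which joins the stalk to the head and confers sensitivity to oligomycin, with 1320.4 in CD8+CX3CR1+ DCs, 1022 in CD8+CX3CR1- DCs, 1259.7 in CD4+ DCs and 949.6 in DN DCs. It was highest in CD8+CX3CR1+ DCs, but its second, dimmer probe set had the opposite sign (log2 -0.32, against 0.37 on the one used).

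How far probe sets of 1 gene differ measures the error of probes and not that of mice or sorts. In CD8+CX3CR1+ against CD8+CX3CR1- DCs, 31 of 43 members with more than 1 probe set above the floor had the same sign on all of them, in CD8+CX3CR1- against CD4+ DCs 25 of 45 and in CD8+CX3CR1- against DN DCs 29 of 43. The root mean square SD of the log2 difference over probe sets of 1 gene was 0.34, 0.37 and 0.28, and the median SD was 0.18, 0.29 and 0.17, beside members' medians of -0.30, 0.25 and 0.24. The members' medians were larger than the median SD in the comparisons with CD8+CX3CR1+ and DN DCs and smaller in the one with CD4+ DCs, and they did not exceed the root mean square SD in any of the 3. These SDs describe single probe sets within 1 gene, and the medians are taken over 83 genes. The SDs show how uncertain the value of 1 gene is and are not the error of the members' medians. Counted singly, the 160 probe sets gave 33 higher and 121 lower in CD8+CX3CR1+ than in CD8+CX3CR1- DCs, 107 higher and 51 lower in CD8+CX3CR1- than in CD4+ DCs, and 126 higher and 29 lower in CD8+CX3CR1- than in DN DCs. The same count over all probe sets of the array was not made. Probe sets of 1 gene are not separate observations.

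**Figure D4:**
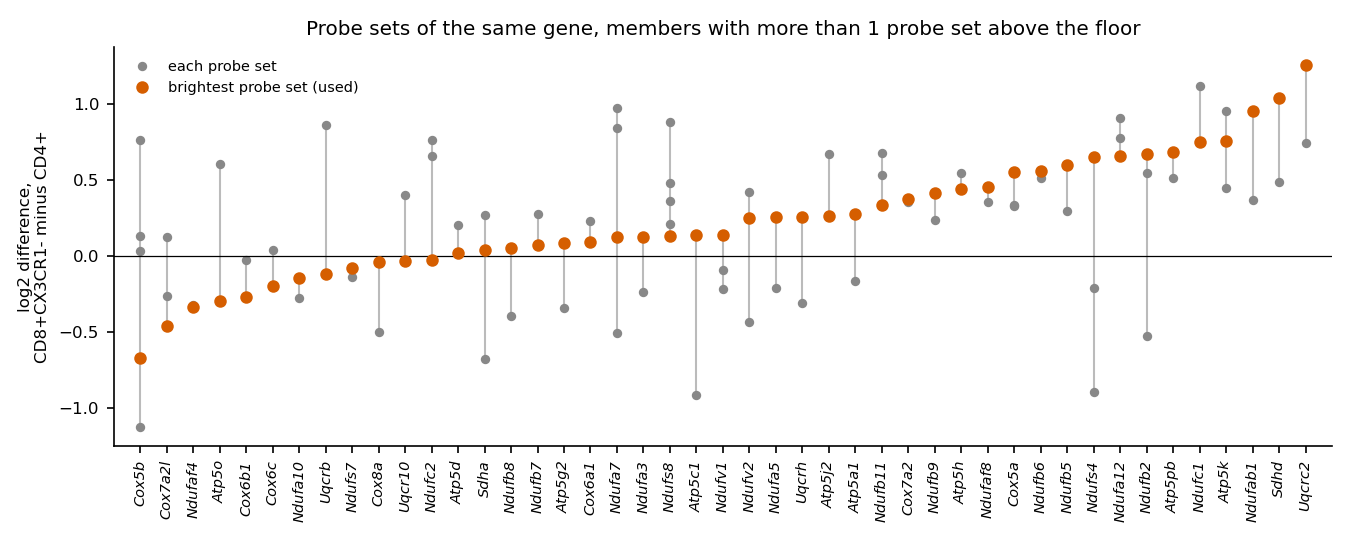
For each member with more than 1 probe set above the floor, grey points give the log2 difference of CD8+CX3CR1- minus CD4+ DCs on each probe set and the orange point the one used. Of these 45 genes, 25 have all points on the same side of 0, and Cox5b runs from -1.13 to 0.76.

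Other lists of mitochondrial genes were read in the same way. Of 25 genes for protein import, chaperones and carriers, 20 were lower in CD8+CX3CR1+ than in CD8+CX3CR1- DCs (median log2 difference -0.20), 20 higher in CD8+CX3CR1- than in CD4+ DCs (0.43) and 22 higher than in DN DCs (0.17). Tomm70a, an import receptor of the outer membrane, had signals of 329.7 in CD8+CX3CR1+ DCs, 523 in CD8+CX3CR1- DCs, 178 in CD4+ DCs and 285 in DN DCs. Hspd1, the matrix chaperonin, had 982 in CD8+CX3CR1+ DCs, 1807 in CD8+CX3CR1- DCs, 1044 in CD4+ DCs and 1333 in DN DCs. Both were highest in CD8+CX3CR1- DCs. Of 76 mitochondrial ribosomal proteins, 53 were lower in CD8+CX3CR1+ than in CD8+CX3CR1- DCs (-0.30), 55 higher in CD8+CX3CR1- than in CD4+ DCs (0.22) and 56 higher than in DN DCs (0.30). The 46 cytosolic ribosomal proteins leaned the same way in 2 of the 3 comparisons and the opposite way against CD4+ DCs: 35 were lower in CD8+CX3CR1+ than in CD8+CX3CR1- DCs (-0.17), 32 were higher in CD8+CX3CR1- than in DN DCs (0.05), and 12 were higher in CD8+CX3CR1- than in CD4+ DCs (-0.22).

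The mobile carrier and the cycle that feeds the chain differed from each other. Cytochrome c, encoded by Cycs, which links complex III to complex IV, had signals of 1119 in CD8+CX3CR1+ DCs, 2369 in CD8+CX3CR1- DCs, 1008 in CD4+ DCs and 1433 in DN DCs. It was 2.35-fold higher in CD8+CX3CR1- than in CD4+ DCs and 2.12-fold higher than in CD8+CX3CR1+ DCs. Gpd2, the glycerol phosphate dehydrogenase that hands cytosolic electrons to coenzyme Q, had 749.9 in CD8+CX3CR1+ DCs, 1514 in CD8+CX3CR1- DCs, 607 in CD4+ DCs and 1244 in DN DCs. Both of these were highest in CD8+CX3CR1- DCs and had the largest differences against CD4+ DCs of 8 electron carrier genes, whose medians were -0.21 for CD8+CX3CR1+ minus CD8+CX3CR1-, 0.38 for CD8+CX3CR1- minus CD4+ and 0.28 for CD8+CX3CR1- minus DN DCs. Of the 8, Aifm1 (log2 0.69) and Etfdh (0.24) were higher in CD8+CX3CR1+ than in CD8+CX3CR1- DCs, and Dhodh was lower in CD8+CX3CR1- than in CD4+ DCs (-0.46). The 18 genes of pyruvate dehydrogenase and the tricarboxylic acid cycle showed no common lean, with medians of -0.03, 0.00 and -0.14 in the 3 comparisons, and 2 of them ran strongly the opposite way. Mdh2, the malate dehydrogenase that supplies NADH to complex I, had 9847 in CD8+CX3CR1+ DCs, 4494 in CD8+CX3CR1- DCs, 10532 in CD4+ DCs and 11879.8 in DN DCs. Idh2, the NADP-linked isocitrate dehydrogenase, had 1417 in CD8+CX3CR1+ DCs, 478 in CD8+CX3CR1- DCs, 649.8 in CD4+ DCs and 690.1 in DN DCs. CD8+CX3CR1- DCs were lowest for both, and Mdh2 was 2.64-fold higher in DN than in CD8+CX3CR1- DCs. Sucla2, a subunit of succinyl-CoA ligase, had 1411 in CD8+CX3CR1+ DCs, 2106 in CD8+CX3CR1- DCs, 741 in CD4+ DCs and 1606 in DN DCs, which put CD8+CX3CR1- DCs highest.

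**Figure D5:**
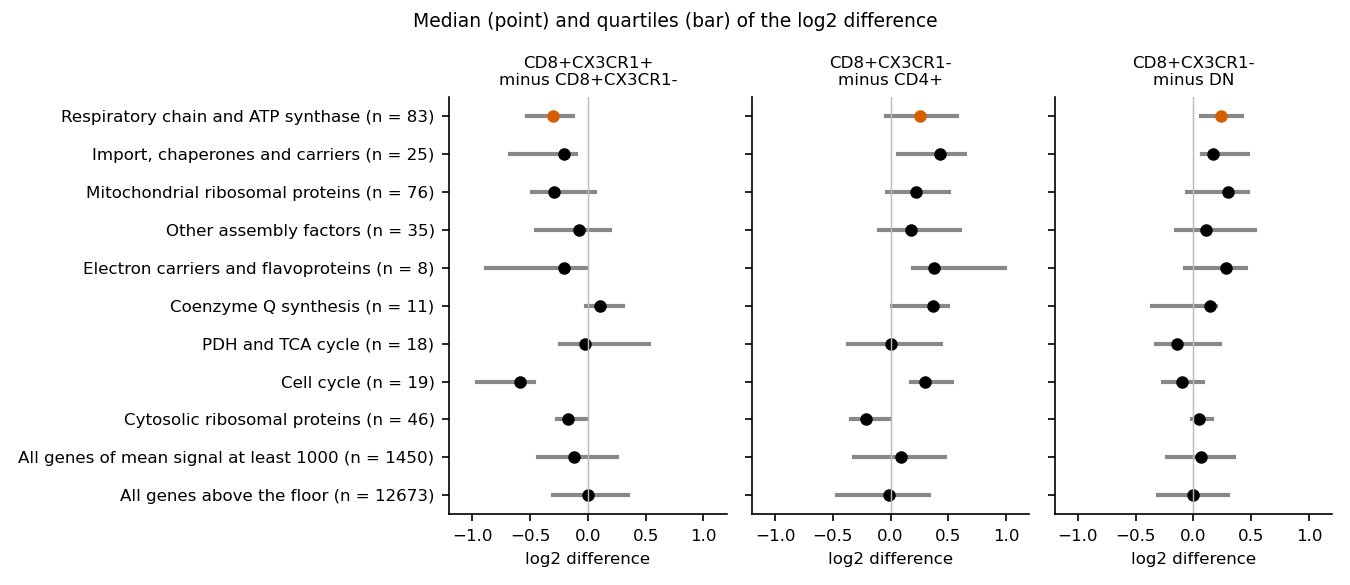
Points are medians and bars the quartiles of the log2 difference over the genes of each list, in 3 panels for the 3 comparisons named above them. The respiratory chain and ATP synthase (orange), the import genes and the mitochondrial ribosomal proteins lie on the same side of 0 in each panel, and all genes lie at 0.

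The 15 genes that regulate mitochondrial gene expression had medians of 0.00, 0.14 and 0.07. Ppargc1a and Ppargc1b, the coactivators best known for raising mitochondrial content, were both under the floor on all 4 arrays. Tfb2m, a factor that starts transcription of mitochondrial DNA, had signals of 169 in CD8+CX3CR1+ DCs, 344 in CD8+CX3CR1- DCs, 159 in CD4+ DCs and 192 in DN DCs, highest in CD8+CX3CR1- DCs. Esrra, which encodes an estrogen-related receptor, had 209 in CD8+CX3CR1+ DCs, 126 in CD8+CX3CR1- DCs, 236 in CD4+ DCs and 127 in DN DCs, with CD8+CX3CR1- and DN DCs low and level. Yy1 had 932 in CD8+CX3CR1+ DCs, 653 in CD8+CX3CR1- DCs, 622 in CD4+ DCs and 1108 in DN DCs. Nrf1 had 162 in CD8+CX3CR1+ DCs, 159 in CD8+CX3CR1- DCs, 184 in CD4+ DCs and 224 in DN DCs. Both were highest in DN DCs. The 35 assembly factors outside the name rule had medians of -0.07, 0.18 and 0.11. Of the 35, 13 were higher and 19 lower in CD8+CX3CR1+ than in CD8+CX3CR1- DCs. Cox17, the copper chaperone of complex IV, was among them with 1512 in CD8+CX3CR1+ DCs, 3282 in CD8+CX3CR1- DCs, 1967 in CD4+ DCs and 2241 in DN DCs. Sdhaf1 (516, 289, 475 and 352 in the same order) and Pet100 (443, 294, 456 and 409) were lowest in CD8+CX3CR1- DCs. Enzymes of coenzyme Q synthesis (11 genes) had medians of 0.10, 0.36 and 0.14, and 8 redox defence genes 0.04, 0.21 and 0.22. Of the 11, 8 were higher and 3 lower in CD8+CX3CR1- than in CD4+ DCs. Coq3 and Coq8a, both with 68.6 in CD8+CX3CR1- DCs, were over 2-fold lower there than in CD8+CX3CR1+ and CD4+ DCs.

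Cell cycle genes leaned the same way as the members in 2 of the 3 comparisons. Of 19, 18 were lower in CD8+CX3CR1+ than in CD8+CX3CR1- DCs (median -0.59) and 17 higher in CD8+CX3CR1- than in CD4+ DCs (0.30), but 7 were higher and 12 lower in CD8+CX3CR1- than in DN DCs (-0.10). Cdk1, the kinase of mitosis, had 296 in CD8+CX3CR1+ DCs, 825 in CD8+CX3CR1- DCs, 301 in CD4+ DCs and 530.0 in DN DCs. The members' median for CD8+CX3CR1- minus DN DCs was 0.24. Markers of plasmacytoid DCs (4 of 4 genes above the floor on at least 1 array) summed to 4682 in CD8+CX3CR1+ DCs, 748 in CD8+CX3CR1- DCs, 653 in CD4+ DCs and 1572 in DN DCs. Of these sums Tcf4 alone made 3489, 270, 470 and 1135. All 4 genes were highest in CD8+CX3CR1+ DCs. Bst2 and Ccr9 were nearly level between CD8+CX3CR1- (236 and 179) and DN DCs (232 and 192), and Siglech was under the floor in CD4+ and DN DCs. Markers of red pulp macrophages (8 of 8) summed to 3793 in CD8+CX3CR1+ DCs, 2579.6 in CD8+CX3CR1- DCs, 7228 in CD4+ DCs and 4333 in DN DCs. The macrophage genes did not run together. Adgre1, Cd68, C1qa and C1qc were highest in CD4+ DCs, Adgre1 with 3068 and Cd68 with 3175. Vcam1 and Hmox1 were highest in CD8+CX3CR1- DCs (513 and 71.6, against 142 and 4.8 in CD4+ DCs). C1qb was highest in CD8+CX3CR1+ DCs (742), and Spic ran only from 56.9 to 79.6. Of the defining T cell, NK cell and B cell genes on the array 3 of 4 each were above the floor somewhere, with sums of at most 246.7, 236.2 and 1003, and 0 of 2 erythroid genes and 1 of 4 neutrophil genes were. The part of such cells, and of cycling cells, in the members' differences was not tested.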

How the data were processed

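RNA of 4 sorted subsets was hybridised to 1 array each, and samples were grouped by title. The deposited values are intensity values (signal) per probe set on a linear scale, made by the authors with MAS5 per the submitters' processing notes (version not given in the sources used here). With the top and bottom 2% of probe sets trimmed, the mean was 150.0 on every array, and no further scaling was applied. Of 45101 probe sets, 34945 carry 1 gene symbol in the platform's annotation and 932 several. Only those with 1 symbol were named, so Ndufa11 and Ndufs6, found only on probe sets with several symbols, were not analysed here. The sources used here do not give the build behind the annotation. Each signal under the floor was set to the floor, and differences against a value under it are given as bounds. Some values just above the common floor lie within their own array's background, whose 90th percentile ran from 46.5 to 62.2.

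With 1 array per group no test was made, and 6 pairs were compared by medians and counts, beside all genes above the floor. The members, lists, markers, motifs and rules were chosen with earlier results of these data known. Members were named if they differed by 2-fold in a main pair, were among the 4 with the largest difference each way, lay under the floor on an array, were nearest to a complex's median against CD4+ DCs or had tissue forms, and list genes came from the 2 with the largest difference each way. Other members were named after their values were seen, as examples of a role. The list gene Nrf1 was named because its motif was searched. Alternatives covered scaling, floor, probe sets per gene and choice of members. The deposited table left 0 columns of samples unused. Steps were tested on simulated data and run in python 3.11.15 with numpy 2.4.6, pandas 2.3.3 and matplotlib 3.10.9.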

Additional observations from a re-analysis of the deposited data

How the results depend on the processing

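No paired analysis was possible because each subset has 1 array and the labels carry no replicate numbers, and for the same reason no array could be left out. Values are log2 medians over the members, beside the reported one. For CD8+CX3CR1+ minus CD8+CX3CR1- DCs (reported -0.30), quantile normalization gave -0.17 and scaling to an equal median over probe sets above the floor -0.37. For CD8+CX3CR1- minus CD4+ DCs (0.25), quantile normalization gave 0.16, equal median 0.030, probe sets averaged 0.30 and probe sets ending _x, _s or _a left out 0.34. Equal median scaling moved the median of all genes to -0.21 in that comparison by its own construction, and the members lay 0.24 above it; there the medians of complex II (-0.061) and complex III (-0.11) changed sign, and without _x, _s and _a probe sets complex III gave 0.88 (reported 0.11). For CD8+CX3CR1- minus DN DCs (0.24), quantile normalization gave 0.14. For CD8+CX3CR1+ minus CD4+ DCs (-0.10) the values were -0.057 with quantile normalization, -0.40 with equal median, -0.063 with probe sets averaged and -0.018 with those probe sets left out. For CD8+CX3CR1+ minus DN DCs (-0.05) they were -0.0081, -0.14 with equal median and -0.10 with probe sets averaged, and for CD4+ minus DN DCs (-0.02) 0.18 with equal median and -0.062 with those probe sets left out. Chosen after seeing the data, an equal median over genes of mean signal at least 1000 gave -0.25 for CD8+CX3CR1+ minus CD8+CX3CR1-, -0.016 for CD8+CX3CR1+ minus DN and 0.20 for CD8+CX3CR1- minus CD4+ DCs, and every probe set counted singly gave -0.044 for CD8+CX3CR1+ minus CD4+ DCs.

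Counts of members at least 2-fold apart depend on the floor. For CD8+CX3CR1+ against CD8+CX3CR1- DCs the 2 became 7 with no floor, 7 with probe sets averaged and 1 with usual subunits only, and, chosen after seeing the data, 0 among members of mean signal at least 1000 and 20 at 1.5-fold. For CD8+CX3CR1- against CD4+ DCs the 6 became 3 with equal median, 11 with no floor and 3 with usual subunits only, and, chosen after seeing the data, 2 among bright members and 22 at 1.5-fold. For CD8+CX3CR1- against DN DCs the 1 became 5 with no floor and 2 with probe sets averaged, and 11 at 1.5-fold. The number of members highest in CD8+CX3CR1- DCs ranged from 38 to 55 over 10 alternatives, the lowest of them 38 of 63 genes with _x, _s and _a probe sets left out. Of 750 values for single named members, 47 moved by more than the spread over probe sets and 28 changed sign. Of 144 medians of single complexes and of the assembly factors, 27 moved. The bar for these was lower, that spread divided by the square root of the number of genes, and it is not an error of the medians. Of the 144, 5 changed sign: those of complexes II and III above, and 3 settings for the assembly factors in CD8+CX3CR1- minus DN DCs (0.016), the lowest -0.015. Except for the construction named above and the smaller sets tested, the cause was not tested. Signals near the floor limit what can be read from Ndufaf6, Ndufb1, Cox8c and Cox6b2.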
